A study of Mus musculus with 9 samples.

Results

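The 10 genes described here encode chaperones and co-chaperones of the cytosol and of the mitochondrial matrix that belong to the heat shock response, the programme driven by heat shock factor 1 (HSF1). They were taken by name (Hspa1a, Hspa1b, Hspa8, Hsph1, Dnajb1, Hsp90aa1, Hspb1, Bag3, Hspd1 and Hspe1), not by a rule on their values, but with earlier results of these data known. They came from a table of 24421 genes, and 10 of 10 were among the 12575 genes that passed the filter on low counts. The table held RNA-seq counts of 4T1, a metastatic line from a mammary carcinoma of BALB/c mice, in 3 groups of 3 libraries. The groups were 3D cultured cells without additional palmitate, 3D cultured cells with 75 µM palmitate and 2D cultured cells with 75 µM palmitate, all kept for 5 days. The 3D cells grew on soft agar and the 2D cells on plastic, all groups received serum, and cells without additional palmitate received the carrier (albumin and ethanol) alone. The groups allow 2 comparisons, 3D over 2D (both with palmitate) and palmitate over none (both in 3D), which share the 3D libraries with palmitate. 2D cells without additional palmitate were not analysed here, so the response to palmitate in 2D and the effect of 3D growth without palmitate cannot be told from these libraries. Nothing in the labels says that replicates came from separate cultures, so p-values measure the spread between these libraries, which may be technical.

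HSF1 is held inactive by chaperones in unstressed cells. When unfolded proteins occupy those chaperones, HSF1 forms trimers, binds heat shock elements in promoters and raises the transcription of chaperone genes. The elements are repeats of the unit nGAAn in alternating orientation, which read as GAA and TTC spaced by 2 bases. HSP70 proteins bind exposed hydrophobic stretches and are driven by J-domain proteins, which start ATP hydrolysis, and by nucleotide exchange factors, which release the client. HSP90 takes over partly folded clients such as kinases and steroid receptors, small heat shock proteins hold unfolded chains, and the mitochondrial chaperonin folds imported proteins in a closed chamber. Cancer cells are known to depend on HSF1 and on several of these chaperones.

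Total counts per library ranged from 6595514 to 31177756, and the third 3D library with palmitate had the lowest. The 45S ribosomal RNA precursor Rn45s took 1.77% to 5.38% of counts. Levels are given as CPM, each count divided by its library size after TMM scaling. Of the markers of epithelial cells, 7 of 7 were tested and their summed level was 5092 to 5152 CPM in 3D without palmitate, 5012 to 5266 CPM in 3D with palmitate and 3943 to 4262 CPM in 2D. Of the leukocyte markers 1 of 8 was tested, the macrophage and endolysosome gene Cd68. The summed leukocyte level was 7.17 to 9.02, 8.88 to 11.6 and 24.6 to 28.0 CPM in the same order of groups, while Adgre1 and Cd3e had no count in any library and Ptprc did not exceed 0.613 CPM. Of the fibroblast markers 3 of 7 were tested, with a summed level of 91.8 to 107 and 93.4 to 111 CPM in both 3D groups and 33.2 to 34.6 CPM in 2D, nearly all of it from Pdgfra. In 3D over 2D, Pdgfra had a log2 fold change of 1.69, whereas Col1a1 (-1.06) and Col1a2 (-4.66), at no more than 2.43 CPM in any library, were lower by edgeR, and Lum had no count. None of the 5 endothelial markers was tested. The part of these markers in the results below was not tested. In bulk RNA, fewer cells with a transcript and less of it per cell cannot be told apart.

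The promoters show where the heat shock element letters lie. RefSeq windows of 300 bases (250 before and 50 after the annotated start, build GRCm38.p6) were found for 8 of 10 genes, in 11 windows. Hspa8 and Hsp90aa1 were not matched. The letters searched were GAANNTTC and TTCNNGAA, which are palindromes and so read the same on both strands, and longer runs in which GAA and TTC alternate with 2 bases between them. A run of at least 2 units was found in 7 of the 8 genes (8 of 11 windows), and in 15.1% of all 32851 RefSeq windows. A run of at least 3 units was found in 3 of the 8 genes (Hsph1, Hspd1 and Hspe1) and in 0.603% of all windows. A run of at least 4 units was found in 8 windows in all, or 0.0244%, and 2 of those 8 belong to Hspd1 and Hspe1. These genes lie head to head on chromosome 1 with overlapping first exons, and 1 stretch of letters serves both windows. It reads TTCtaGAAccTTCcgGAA at -89 to -72 on the strand of Hspe1 and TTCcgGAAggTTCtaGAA at -144 to -127 on that of Hspd1, counted from each gene's RefSeq start. The position given for Hspd1 is counted from the start of its first window. A second Hspd1 window, chr1:55088194-55088493, belongs to a start further upstream and holds no run. Seen from that second start the same letters lie downstream, outside its window. The windows below are shown because Hspe1 carries the 4-unit run, Hsph1 a 3-unit run, and Hspa1b the 2-unit run of the stress-inducible HSP70 genes; capitals mark the GAA and TTC units.
Hspe1, chr1:55087898-55088197, plus strand: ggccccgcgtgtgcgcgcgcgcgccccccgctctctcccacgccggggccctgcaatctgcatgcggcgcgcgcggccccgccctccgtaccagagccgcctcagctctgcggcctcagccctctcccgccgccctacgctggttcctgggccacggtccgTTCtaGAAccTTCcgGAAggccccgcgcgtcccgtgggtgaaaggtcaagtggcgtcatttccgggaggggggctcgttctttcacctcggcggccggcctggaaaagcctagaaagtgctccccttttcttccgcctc
Hsph1, chr5:149636266-149636565, minus strand: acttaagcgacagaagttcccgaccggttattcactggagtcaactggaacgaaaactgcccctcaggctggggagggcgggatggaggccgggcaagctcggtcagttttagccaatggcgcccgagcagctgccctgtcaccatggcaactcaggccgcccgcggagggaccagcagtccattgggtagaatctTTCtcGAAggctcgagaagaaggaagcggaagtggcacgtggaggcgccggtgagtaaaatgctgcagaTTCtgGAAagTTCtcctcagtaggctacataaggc
Hspa1b, chr17:34959189-34959488, minus strand: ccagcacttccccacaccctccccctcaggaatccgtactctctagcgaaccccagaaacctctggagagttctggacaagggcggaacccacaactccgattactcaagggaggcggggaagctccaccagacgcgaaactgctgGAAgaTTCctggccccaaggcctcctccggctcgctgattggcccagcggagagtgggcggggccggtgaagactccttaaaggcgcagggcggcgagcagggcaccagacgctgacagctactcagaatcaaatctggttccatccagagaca

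The Hspa1a window differed from that of Hspa1b in 4 of 300 bases and holds the same run, GAAgaTTC, at -104 to -97, with a CCAAT box at -67 to -63. CCAAT, a common promoter element searched on both strands, was found in 37.4% of all windows, and TATAAA in 13.6% of all windows and in none of the 11. Hspb1 has a pair of 2-unit runs, at -117 to -110 and -97 to -90, and Bag3 has a 2-unit run downstream of its start, at +42 to +49. Neither Dnajb1 window holds a run of these letters. A match describes letters and not a bound site, and the absence of a match covers these windows only. Only exact GAA and TTC units were counted. An element with a changed base in a unit is therefore missed or given as a shorter run, also in the HSP70 and Dnajb1 windows.

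**Figure D1:**
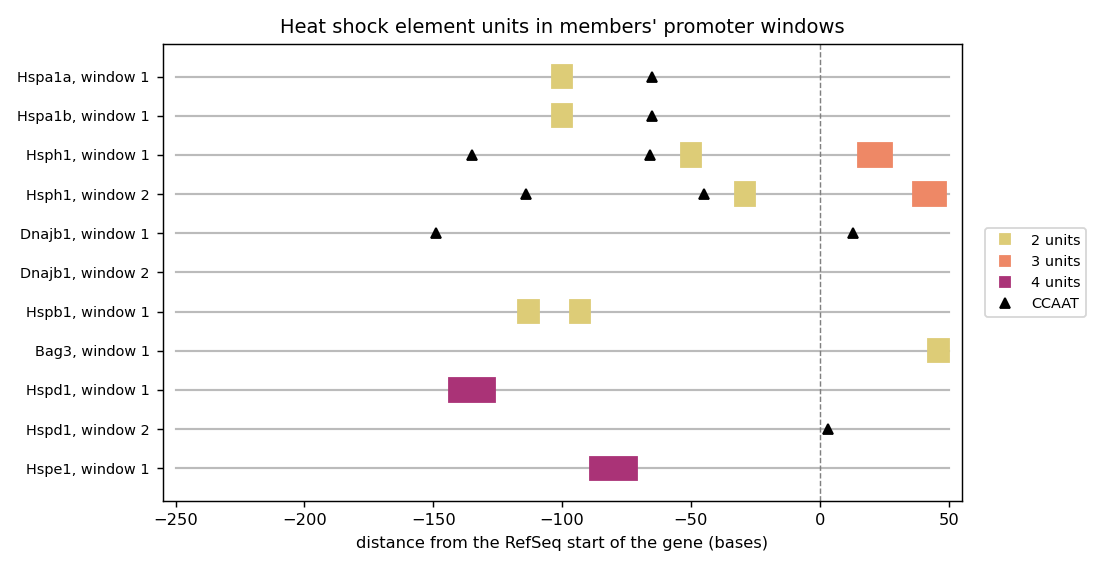
Runs of GAA and TTC units in the RefSeq promoter windows of 8 of the 10 genes; the x axis is the distance from the annotated start in bases, each grey line is a window, coloured blocks are runs of 2, 3 or 4 units and triangles are CCAAT boxes. The only 4-unit run lies in the shared region of Hspd1 and Hspe1, and both Dnajb1 windows are without a run.

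Together the 10 genes took 0.216% ± 0.0053 of all counts in 3D without palmitate, 0.224% ± 0.0222 in 3D with palmitate and 0.352% ± 0.0026 in 2D (SD, n = 3). Upon 3D growth in the presence of palmitate, 3 of 10 were higher and 5 of 10 were lower than in 2D by edgeR's quasi-likelihood test (Benjamini-Hochberg adjusted p under 0.05). The background was wide, since 34.5% of all 12575 tested genes were higher and 33.9% were lower in that comparison, and the count of 8 of 10 is to be read against those shares. It was 5 of 10 without the first 3D library with palmitate, and 8 of 10 (3 higher, 5 lower) without the third, the shallowest. The lower genes were the abundant chaperones Hspa8, Hsp90aa1, Hspd1 and Hspe1 and the scarce Hspb1, and the higher genes were Hspa1b, Dnajb1 and Bag3. The median log2 fold change over the 10 was -0.28, against 0.01 over all genes tested. The 3D libraries with palmitate and the 2D libraries did not overlap for 7 of 10 genes, and for 69.4% of all genes tested. For palmitate over none in 3D, 0 of 10 genes passed, against 1.38% of all genes higher and 0.811% lower. Unadjusted p was under 0.05 for 2 of 10 (Hsph1 and Hspe1). DESeq2 called 0 of the 8 genes with an adjusted p on all 9 libraries, and 0 of 10 on the 2 groups compared. Without the third 3D library with palmitate, 1 of 10 (Hspe1) was called, beside 1901 of all 12787 genes tested in that run. The libraries did not overlap for 1 of 10 (Hsph1), against 18.6% of all genes, and the median was 0.02 over the 10 and 0.01 over all.

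**Figure D2:**
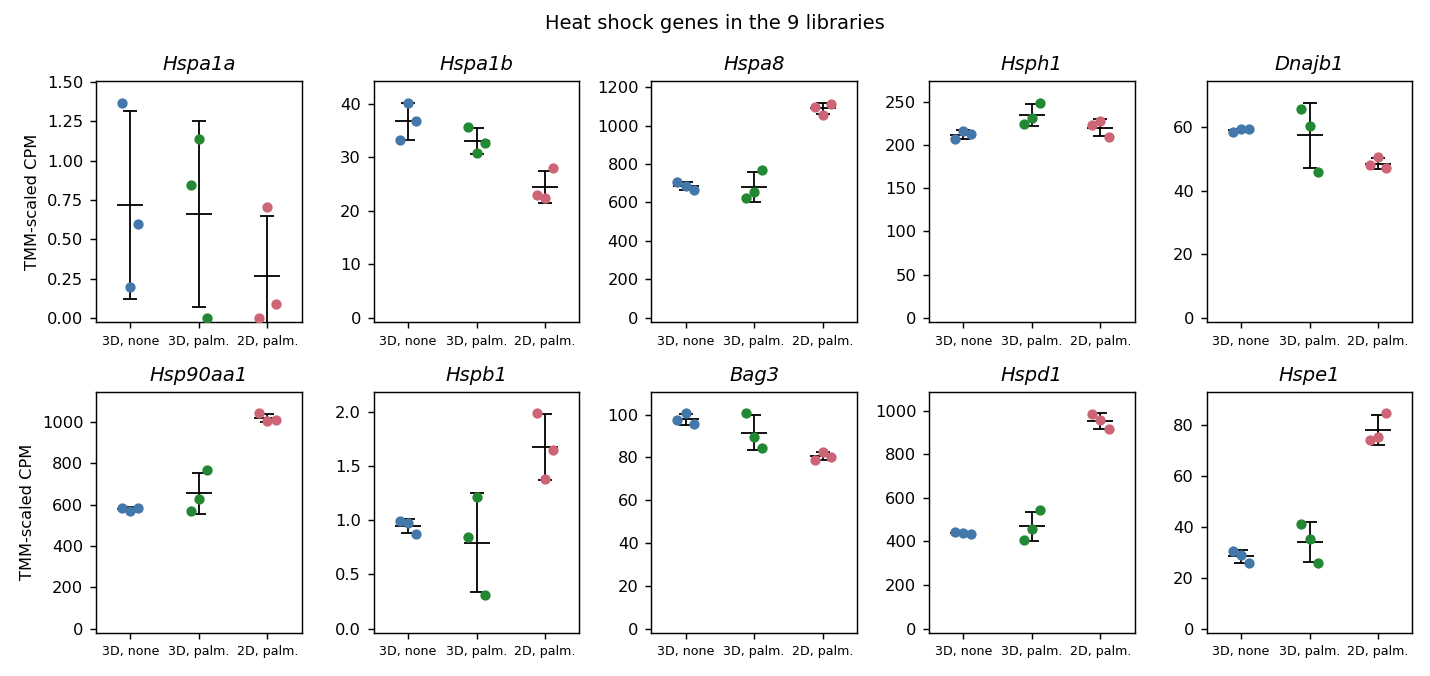
TMM-scaled CPM of the 10 genes in the 9 libraries; points are libraries, horizontal bars are means and error bars are 1 SD (n = 3 per group; the lower bar of Hspa1a in 2D is cut near 0). For Hspa8, Hsp90aa1, Hspb1, Hspd1 and Hspe1 all 6 3D libraries lie below all 3 2D libraries, and for Hspa1b and Bag3 all lie above. Between 3D with palmitate and 2D alone, 69.4% of all genes tested were without overlap. The share of all genes for the 6 3D libraries together was not counted.

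Hspd1 encodes HSP60, the ring-forming subunit of the mitochondrial chaperonin (Hspd1, chr1:55077835-55088243, minus strand, GRCm38). Its level was 986, 959 and 916 CPM in the 2D libraries, 408, 457 and 543 CPM in the 3D libraries with palmitate, and 445, 437 and 435 CPM in those without. All 6 3D libraries were below all 2D libraries, whichever the palmitate supply. The 3D over 2D log2 fold change was -1.03 ± 0.08 (SE), with an adjusted p of 7.25e-08 (edgeR), or 50.9% fewer scaled counts. Palmitate over none gave 0.09 ± 0.08 (adjusted p = 0.628), with -0.0246 without the third and 0.18 without the first library with palmitate. In the third 3D library with palmitate, the shallowest of all, Hspd1 was higher than in the other 5 3D libraries.

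Hspe1 encodes HSP10, the lid of the same chamber (chr1:55088132-55091307, plus strand). It was at 74.1, 75.1 and 84.6 CPM in 2D, 41.1, 35.3 and 25.7 CPM in 3D with palmitate and 30.7, 28.9 and 25.7 CPM in 3D without. The 3D libraries were again all below the 2D libraries, and the log2 fold change of -1.14 ± 0.12 (adjusted p = 8.71e-07, edgeR) was the most negative of the 10. Of the 10 genes it also had the largest log2 fold change with palmitate in 3D, 0.31 ± 0.13, which did not pass (adjusted p = 0.216). Single libraries moved this value: without the third library with palmitate it was 0.44 with an adjusted p of 0.00508 (edgeR), so that Hspe1 was then called higher, and without the first it was 0.14 (adjusted p = 0.648). Per kilobase of transcript, Hspd1 was at 394 ± 14.6 and Hspe1 at 101 ± 7.49 CPM per kb in 2D (SD, n = 3), so the lid transcript was the less abundant on that scale. The exons of the genes overlap on opposite strands, and whether counting used strand is not given in the sources used here.

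The ratio of Hspd1 to Hspe1 counts, not corrected for length, was 13.3, 12.8 and 10.8 in 2D, 9.91, 12.9 and 21.1 in 3D with palmitate and 14.5, 15.1 and 16.9 in 3D without. The 3D values with palmitate spanned the widest range and surrounded those of 2D. The log2 ratio differed by 0.19 between 3D and 2D (exact two-sided permutation test, p = 0.8, n = 3 per group) and by -0.15 between palmitate and none (exact p = 0.7). The signs turned to -0.11 without the third and to 0.09 without the first 3D library with palmitate, respectively. With 3 against 3 libraries the smallest p such a test can give is 0.1.

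HSP70 is present as a constitutive form and as stress-inducible forms. Hspa8 encodes HSC70, the constitutive chaperone that also uncoats clathrin vesicles (chr9:40800984-40810087, plus strand). It was at 1098, 1055 and 1114 CPM in 2D, 623, 653 and 769 CPM in 3D with palmitate and 709, 683 and 666 CPM in 3D without. All 3D libraries lay below all 2D libraries. The 3D over 2D log2 fold change was -0.68 ± 0.07 (adjusted p = 1.32e-06, edgeR), and with palmitate in 3D it was -0.01 ± 0.07.

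Hspa1a and Hspa1b encode near-identical stress-inducible HSP70 proteins from neighbouring intronless genes (chr17:34969190-34972156 and chr17:34956436-34959238, both on the minus strand). Of the 50-base stretches of each transcript, the length of the reads, 66.3% of those of Hspa1a and 62.3% of those of Hspa1b occur in another annotated gene, so reads from either gene can be split or dropped in counting. Hspa1a had 105 counts over the 9 libraries and Hspa1b 5191, or 1.98% of the pair for Hspa1a. Exons of Hspa1a, but not of Hspa1b, overlap those of the annotated gene Gm20481 on the opposite strand. Whether counting used strand is not given, and the part of this overlap in the low counts was not tested. In order of replicate, Hspa1a had 29, 3 and 11 counts in 3D without palmitate, 23, 15 and 0 in 3D with palmitate and 0, 22 and 2 in 2D. The groups overlapped, and the 3D over 2D log2 fold change, 1.15 ± 0.79, did not pass (adjusted p = 0.206, edgeR). Without the second 2D library it was 3.63 with an adjusted p of 0.0179, and without the filter on low counts it was 1.14 with an adjusted p of 0.0295. In 3D, palmitate over none was 0.05 ± 0.70.

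Hspa1b was at 22.9, 22.4 and 27.9 CPM in 2D, 35.6, 30.8 and 32.6 CPM in 3D with palmitate and 33.3, 40.2 and 36.7 CPM in 3D without. All 3D libraries were above all 2D libraries, so Hspa1b moved against Hspa8. The log2 fold change was 0.44 ± 0.10 (adjusted p = 0.00138, edgeR), and 0.46 when the counts of Hspa1a and Hspa1b were summed (adjusted p = 0.000663). For palmitate over none it was -0.14 ± 0.10 (adjusted p = 0.508).

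The summed inducible counts stood at 0.0209, 0.0219 and 0.0251 of the Hspa8 counts in 2D, against 0.0584, 0.0490 and 0.0424 in 3D with palmitate and 0.0489, 0.0591 and 0.0560 in 3D without. No 3D library overlapped a 2D library. The ratio was 2.19-fold higher in 3D with palmitate than in 2D, a log2 difference of 1.13, with an exact permutation p of 0.1, the smallest that 3 against 3 allows, and 0.4 after Benjamini-Hochberg adjustment over the 8 ratio tests. Leaving out a library at a time gave log2 differences between 1.01 and 1.25. Between palmitate and none in 3D the log2 difference was -0.14 (exact permutation p = 0.5), and leaving out a library gave values from -0.26 (without the first with palmitate) to -0.0262 (without the third).

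**Figure D3:**
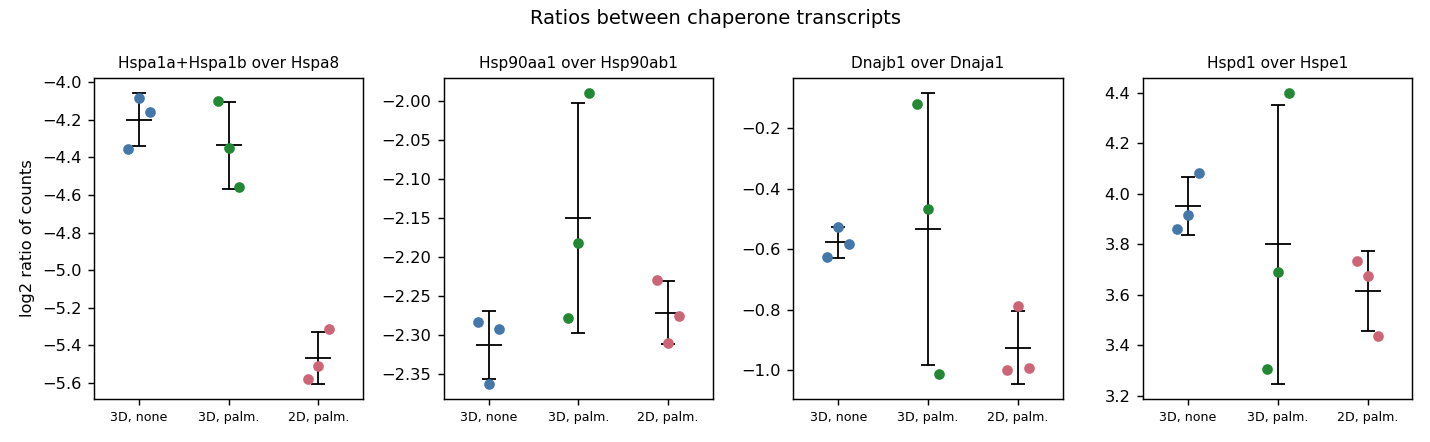
Log2 ratio of counts in each library for 4 pairs of chaperone transcripts; points are libraries, horizontal bars are means and error bars are 1 SD (n = 3 per group). The ratio of Hspa1a plus Hspa1b to Hspa8 lies between -4.56 and -4.08 in the 6 3D libraries and between -5.58 and -5.32 in the 2D libraries, while 3D with palmitate spans the 2D values for Hspd1 over Hspe1 and for Dnajb1 over Dnaja1.

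Hsph1, which encodes HSP110, a nucleotide exchange factor and disaggregase partner (chr5:149614287-149636376, minus strand), was at 223, 228 and 209 CPM in 2D, 224, 231 and 249 CPM in 3D with palmitate and 207, 216 and 213 CPM in 3D without. Its 3D over 2D log2 fold change was 0.09 ± 0.06 and did not pass (adjusted p = 0.206, edgeR). Removing each library's own trend of log2 CPM with GC content and transcript length turned the log2 fold change to -0.14. Its adjusted p was then 0.00779 (edgeR), so its direction depends on that choice. With palmitate in 3D all 3 libraries were above those without, by 0.15 ± 0.06 on the log2 scale and at an adjusted p of 0.245 (edgeR), and of 0.16 with an adjusted p of 0.0394 once the same trend was removed.

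Dnajb1 encodes HSP40, the J-domain partner of inducible HSP70 (chr8:83608193-83612653, plus strand). It was at 48.1, 50.5 and 47.0 CPM in 2D, 65.8, 60.5 and 45.8 CPM in 3D with palmitate and 58.3, 59.3 and 59.3 CPM in 3D without. The third 3D library with palmitate was below all 2D libraries, while the other 5 3D libraries were above them. The log2 fold change of 0.27 ± 0.10 had an adjusted p of 0.0232 (edgeR) and lost its call in 7 of 19 alternatives, with 0.16 and an adjusted p of 0.140 without the first 3D library with palmitate. In 3D, palmitate over none gave -0.01 ± 0.10.

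The log2 ratio of Dnajb1 to the related Dnaja1 was 0.39 higher in 3D than in 2D with palmitate (exact permutation p = 0.4, n = 3 per group) and 0.04 higher with palmitate than without (exact p = 0.8). Without the first 3D library with palmitate these differences were 0.19 and -0.16, and without the third they were 0.63 and 0.28.

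Bag3 encodes a nucleotide exchange factor that links HSP70 to small heat shock proteins and to selective autophagy (chr7:128523616-128546981, plus strand). Its levels were 78.9, 82.6 and 80.1 CPM in 2D, 100.6, 89.7 and 84.2 CPM in 3D with palmitate and 97.6, 100.5 and 95.4 CPM in 3D without. All 3D libraries lay above all 2D libraries. The difference was small, a 3D over 2D log2 fold change of 0.19 ± 0.07 (adjusted p = 0.0229, edgeR), and lost its call in 5 of 19 alternatives, with 0.11 and an adjusted p of 0.143 without the first 3D library with palmitate. Palmitate over none in 3D gave -0.09 ± 0.07.

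Hsp90aa1 encodes the stress-inducible cytosolic HSP90 (chr12:110690605-110702728, minus strand). It was at 1043, 1008 and 1012 CPM in 2D, 569.8, 629.5 and 766 CPM in 3D with palmitate and 586, 569.8 and 585 CPM in 3D without. The 3D libraries were all below the 2D libraries, and the third with palmitate was the highest of them. The 3D over 2D log2 fold change was -0.64 ± 0.08 (adjusted p = 9.95e-06, edgeR), and with palmitate in 3D it was 0.17 ± 0.08 (adjusted p = 0.314), with 0.0459 without the third and 0.26 without the first library with palmitate. The constitutive Hsp90ab1 had a 3D over 2D log2 fold change of -0.77 ± 0.06 (adjusted p = 1.82e-08), and the log2 ratio of Hsp90aa1 to Hsp90ab1 differed by 0.12 between 3D and 2D (exact permutation p = 0.3, n = 3 per group), and by 0.0409 without the third and 0.19 without the first 3D library with palmitate. Between palmitate and none in 3D that ratio differed by 0.16 without overlap of the libraries (exact p = 0.1, 0.4 after adjustment), a value that was 0.08 without the third library with palmitate.

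Hspb1 encodes HSP25, the mouse form of the small heat shock protein HSP27 (chr5:135887919-135889563, plus strand). It was scarce, at 1.98, 1.38 and 1.65 CPM in 2D, 0.846, 1.22 and 0.306 CPM in 3D with palmitate and 0.992, 0.969 and 0.868 CPM in 3D without, from 2 to 43 counts per library. All 3D libraries were below all 2D libraries. The log2 fold change of -0.88 ± 0.30 had an adjusted p of 0.0163 (edgeR), which became 0.0764 without the first 3D library with palmitate and 0.0680 by DESeq2 on both groups alone. The palmitate over none value was -0.11 ± 0.33. Of its 50-base stretches, 50.1% also occur in other annotated genes, mostly the pseudogene Hsp25-ps1, so its counts are uncertain. The shares were 47.5% for Hsp90aa1, 42.1% for Hspd1, 39.4% for Hspa8, 22.8% for Hspe1, 0.412% for Dnajb1 and 0 for Hsph1 and Bag3.

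**Figure D4:**
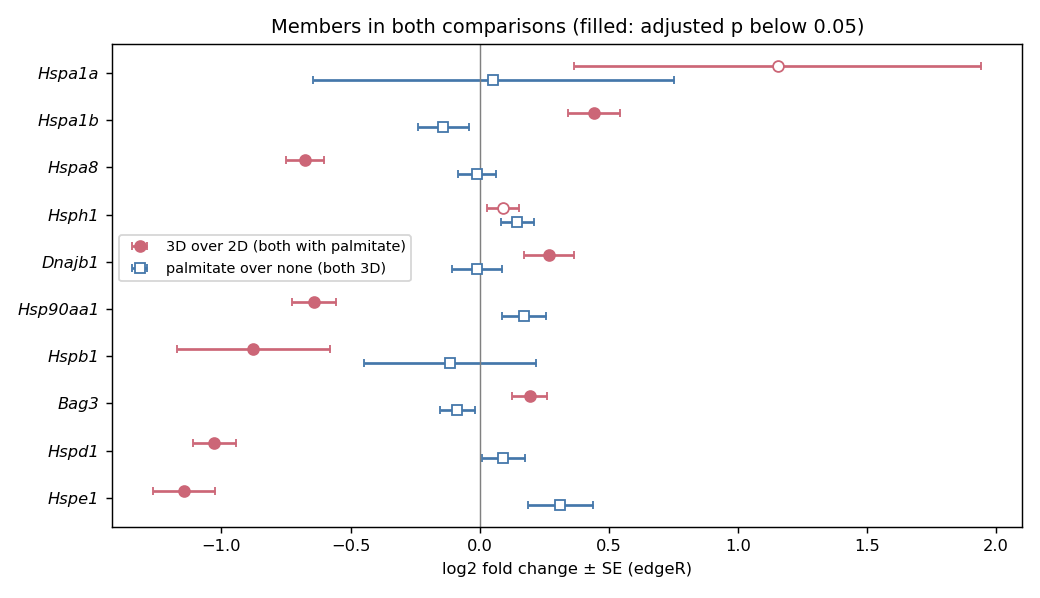
Log2 fold change (x axis) of the 10 genes with its SE, circles for 3D over 2D with palmitate and squares for palmitate over none in 3D; filled symbols passed at an adjusted p under 0.05 (edgeR). The 3D over 2D values range from -1.14 for Hspe1 to 1.15 for Hspa1a, which did not pass, and no square is filled.

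Ranked per kilobase of the principal transcript in 2D, the levels were 455 ± 12.8 CPM per kb for Hspa8, 394 ± 14.6 for Hspd1, 311 ± 5.89 for Hsp90aa1, 101 ± 7.49 for Hspe1, 57.9 ± 2.48 for Hsph1, 31.4 ± 0.726 for Bag3, 16.2 ± 0.593 for Dnajb1, 8.71 ± 1.08 for Hspa1b, 1.85 ± 0.337 for Hspb1 and 0.0892 ± 0.129 for Hspa1a (SD, n = 3). Each neighbour in that order was further apart than the sum of their SDs. Reads from 50-base stretches shared with other genes (66.3% for Hspa1a, 0 for Bag3) may be dropped in counting. The SDs do not measure this, so the order holds for counted reads only. In 3D with palmitate Hspa8 was at 285 ± 32.2 CPM per kb, Hsp90aa1 at 199.7 ± 30.7 and Hspd1 at 194 ± 28.2. The levels of the latter pair were closer than the sum of their SDs. Both genes were read in the same libraries, and separate SDs do not use that pairing. Their order within single libraries was not tested. Hsph1, at 61.8 ± 3.34, was above Hspe1, at 44.0 ± 10.1, in 3D with palmitate, the reverse of their order in 2D. Without palmitate the 3D levels were 287 ± 8.93 CPM per kb for Hspa8, 181 ± 2.14 for Hspd1 and 177 ± 2.77 for Hsp90aa1. The latter pair was again closer than the sum of their SDs, with the same limit. Hsph1, at 55.7 ± 1.31, was above Hspe1, at 36.7 ± 3.24.

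The factors that control the programme were read next. Hsf1 was at 69.7, 73.5 and 77.2 CPM in 2D, 50.5, 44.4 and 38.0 CPM in 3D with palmitate and 43.8, 43.7 and 41.3 CPM in 3D without. All 3D libraries were below all 2D libraries, and the 3D over 2D log2 fold change was -0.71 ± 0.09 (adjusted p = 4.45e-06, edgeR). Hsf2, which encodes a related factor able to pair with HSF1, had a value of -0.51 ± 0.07 (adjusted p = 2.36e-05). Hsbp1, which encodes a small protein that binds HSF1 trimers, did not pass (0.11 ± 0.06, adjusted p = 0.137). Hsf4, Hsf5 and Hsbp1l1 were too low to be tested. With palmitate in 3D, edgeR and DESeq2 each called 0 of the 3 tested, and 0 had an unadjusted p under 0.05. These are transcript levels and do not measure HSF1 activation, which acts on the protein.

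The wider chaperone network was described in the same fit with lists of related genes. Of 108 tested genes on 10 lists, 18 were higher and 67 lower in 3D than in 2D. The cytosolic chaperonin TRiC, which folds actin and tubulin, and its helper prefoldin had 14 of 14 genes lower, at a median of -0.72 on the log2 scale, with values of -0.92 ± 0.06 for Cct2, -0.92 ± 0.06 for Cct7 and -0.83 ± 0.06 for Cct8. Of HSP90 and its co-chaperones, 12 of 14 were lower and 0 higher (median -0.64), among them Cacybp (-1.17 ± 0.08), Fkbp4 (-0.99 ± 0.06) and the HSP70-HSP90 adaptor Stip1 (-0.90 ± 0.06). Of the other mitochondrial chaperones and proteases, 14 of 16 were lower and 1 higher (median -0.45). The higher gene, named after its value was seen, was Atf5 (0.60 ± 0.12), which encodes a transcription factor of the mitochondrial unfolded protein response and neither a chaperone nor a protease. Hspa9, the mitochondrial HSP70, fell by 1.23 on the log2 scale, the protease Htra2 by 1.22 and the protease Lonp1 by 1.06.

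Of the other HSP70 and HSP110 genes, 2 of 8 were higher and 2 lower (median -0.16), with 0.94 ± 0.09 for the microsome-associated Hspa13, -0.59 ± 0.07 for the HSP110 gene Hspa4 and -0.52 ± 0.16 for Hspa1l. Of the other J-domain genes, 2 of 11 were higher and 6 lower (median -0.34), with -1.11 ± 0.08 for Dnajc2, which acts at the ribosome, -1.01 ± 0.07 for Dnajc21, which acts in ribosome assembly, and 0.75 ± 0.07 for Dnajb4. Of the other small heat shock proteins 4 of 5 were lower and 0 higher (median -0.45), with Hspb2 at -1.85 ± 0.26, Cryab at -0.94 ± 0.13 and Hspb11, which acts in intraflagellar transport, at -0.45 ± 0.09. Of the BAG and CHIP co-chaperones, 1 of 7 was higher and 3 lower (median -0.13), with Bag1 at -0.39 ± 0.06, the HSP70-interacting protein St13 at -0.41 ± 0.09 and Bag5 at -0.19 ± 0.06.

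Of the other HSF1 targets, 2 of 15 were higher and 9 lower (median -0.50), a list that holds genes also induced by other stress pathways. Gadd45b, a growth arrest and DNA damage gene, had -2.75 ± 0.13, the oxygenase gene Jmjd6 -0.85 ± 0.06, and Zfand2a, an arsenite-inducible proteasome adaptor, 1.11 ± 0.07. The ER chaperones, which answer to the unfolded protein response rather than to HSF1, gave 10 of 15 higher and 1 lower (median 0.27), with Dnajc3 at 1.25 ± 0.10, Dnajb9 at 1.11 ± 0.08 and Calr at 0.47 ± 0.06. All values in these lists are log2 fold changes of 3D over 2D ± SE from edgeR. The lists hold known gene families and the counts are descriptions, beside 34.5% higher and 33.9% lower among all genes.

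**Figure D5:**
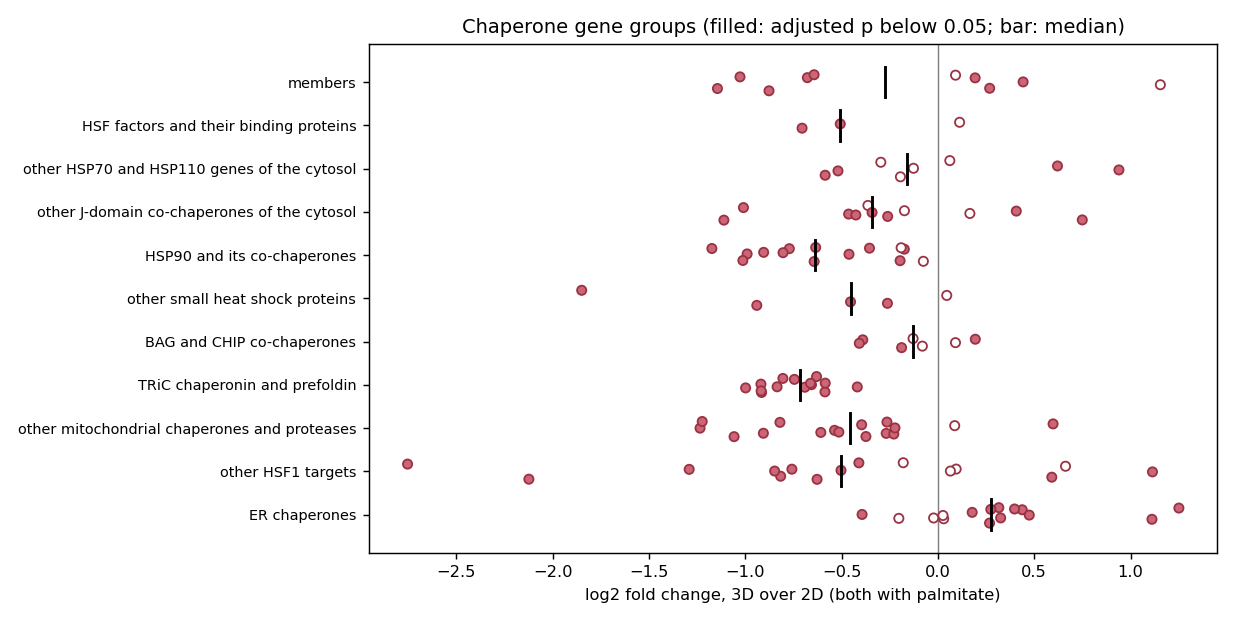
Log2 fold change of 3D over 2D (x axis, both with palmitate) for the 10 genes, labelled members, and for 10 lists of related genes; each point is a gene, filled where the adjusted p was under 0.05, and bars are medians. TRiC and prefoldin genes all lie below 0 with a median of -0.72, and the ER chaperones have a median of 0.27.

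With palmitate in 3D, 3 of the same 108 genes were higher and 0 lower, beside 1.38% higher and 0.811% lower among all genes tested. The 3 are named because the count is small, after their values were seen. Hmox1, which encodes the heme-degrading enzyme heme oxygenase 1, rose by 0.68 on the log2 scale (adjusted p = 0.000918, edgeR) and kept its call in 19 of 19 alternatives. The stress-inducible factor gene Atf3 had 0.65 (adjusted p = 0.0105), with the call lost in 5 of 19. Herpud1, a gene of ER-associated degradation, had 0.29 (adjusted p = 0.0478), with the call lost in 14 of 19. Without the third 3D library with palmitate the count was 24 of 110 tested list genes, 21 higher and 3 lower. Over all genes 1901 of 12787 then passed, in place of 275 of 12575. Leaving out any other library lowered the count over all genes, to between 71 (without the third 3D library without palmitate) and 200. The reason was not tested.

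The genes whose log2 CPM, centred over the 9 libraries, came closest to single members were found by the root mean square difference over those libraries. The closest was Ppid at 0.0428 for Hspd1, Bst2 at 0.0639 for Hspe1, Sub1 at 0.0295 for Hspa8, Ltv1 at 0.0322 for Hsp90aa1, Sec23b at 0.0261 for Hsph1, Patz1 at 0.0510 for Dnajb1 and Tfap2a at 0.0676 for Hspa1b. For the scarce Hspb1 it was Frs3 at 0.207 and for Hspa1a Gpr21 at 0.807, far from close. Of these, only Ppid, which encodes the HSP90 co-chaperone cyclophilin 40, was on a chaperone list.

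Of the tested genes outside the 10 whose RefSeq window holds a run of at least 3 units, a list drawn up after the members' values were seen, 15 of 52 (28.8%) were higher and 21 (40.4%) lower in 3D than in 2D, and their median was -0.12 on the log2 scale, beside 34.5% higher, 33.9% lower and a median of 0.01 over all genes tested. Chordc1, an HSP90 co-chaperone, is named outside the naming rule given below, and its 5-unit run was the longest in any window. It did not pass in 3D over 2D (-0.19 ± 0.09, adjusted p = 0.0742, edgeR). Values of the other genes outside the 10 with a run of at least 4 units are not given.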

How the data were processed

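RNA was extracted with TRIzol, and poly-A libraries were made with a stranded mRNA kit and sequenced as 50-base single-end reads. Per the labels and methods, the authors trimmed reads with fastq-mcf, checked them with FastQC 0.11.9, aligned them with HISAT2 2.1.0 to GRCm38 and deposited raw gene counts from HTSeq-count. The annotation release and the strand setting of counting are not given in the sources used here. Here, the 9 libraries were fitted together in edgeR 4.0.16 (filterByExpr, TMM scaling, quasi-likelihood test, condition as the only term, Benjamini-Hochberg threshold 0.05). The procedure was tested on simulated data in which 200 genes were changed in the 3D group with palmitate. In 3D over 2D 8594 of 12575 genes passed, and the simulation does not cover a change that wide. Ratios were compared with exact two-sided permutation tests. Alternatives were other scalings and filters, DESeq2 1.42.0, a replicate block, a covariate, leaving out each library and, chosen after seeing the data, removal of a GC and length trend. The members and lists were chosen with earlier results of these data known. Named genes were the members, the HSF genes, up to 3 called genes with the smallest p per list, and the nearest profile of each member, 1 of which is not reported here. Gene positions are from GENCODE vM21. Counting error alone limits genes of few counts, and a count of 3 in a library equals 0.0961 to 0.459 CPM.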

Additional observations from a re-analysis of the deposited data

How the results depend on the processing

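Of the 8 calls of 3D over 2D, those of Hspa1b, Hspa8, Hsp90aa1, Hspd1 and Hspe1 kept direction and threshold in every alternative run, and those of Dnajb1, Bag3 and Hspb1 did not. The count was 5 (1 higher, 4 lower) by DESeq2 on the 2 groups compared, and 5 to 9 when a library was left out, with 5 without the first 3D library with palmitate. Hsph1 turned to -0.14 when the GC and length trend was removed. For palmitate over none, 1 of 10 passed without the filter on low counts (Hspe1) and 1 with the trend removed (Hsph1), and 0 to 1 when a library was left out. Over all genes tested, 617 of 18522 passed without the filter and 880 of 12575 with the trend removed. Log2 fold changes near 0 changed sign there: Hspa1a had -0.16 with the replicate block, -0.0328 by DESeq2 on the 2 groups, -0.42 with the Rn45s share as a covariate, -0.0469 with the trend removed, and -0.33 to 0.95 when a library was left out. Hspa8 had 0.0532 with the covariate and -0.106 to 0.0478 when a library was left out. When a library was left out, Dnajb1 had -0.12 to 0.10, Hspb1 -0.38 to 0.0498 and Hspd1 -0.0246 to 0.18, with the turned signs without the third 3D library with palmitate. The list genes called with palmitate (3) were 8 without the filter, 7 by DESeq2 on all libraries, 15 with the trend removed, 1 with the 2 groups alone, 1 with the covariate and 1 to 24 when a library was left out. Over all genes tested, 395 of 11460 passed by DESeq2 on all libraries, 77 of 12243 with the 2 groups alone and 44 of 12575 with the covariate. Leaving out a library moved the log2 ratio of Dnajb1 to Dnaja1 with palmitate between -0.16 and 0.28, that of Hspd1 to Hspe1 between -0.11 and 0.43 for 3D over 2D and between -0.45 and 0.0928 with palmitate. The causes were not tested.

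No sign that replicate numbers pair the libraries was seen: deviations of libraries with the same number had r from -0.24 to 0.15 over 9 pairs, and others from -0.17 to 0.28 over 18 pairs. With 3 libraries per group this check cannot settle whether the numbers mark shared cultures. With the replicate block 8 of 10 members passed in 3D over 2D, 0 of 10 with palmitate, and 84 and 2 of the 108 list genes. Depth limits Hspa1a and Hspb1, which have few counts.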
